A study of Mus musculus with 22 samples.

Results

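Cortical astrocytes of APPswe/PS1dE9 mice (APP/PS1) were compared with those of wild-type littermates (WT), in 4 APP/PS1 and 4 WT samples out of 22 samples in the series. Both genotypes were on the C57BL/6 strain and 15 to 18 months old. APP/PS1 mice carry a chimeric amyloid precursor protein with the Swedish mutation and a presenilin 1 lacking exon 9, under the mouse prion protein promoter, and develop amyloid plaques as they age. Cells were dissociated from perfused cortex with papain, depleted of myelin, and sorted live as positive for the glutamate transporter GLT1 and negative for the microglial surface protein CD11b and the oligodendrocyte antigen O4. The other 14 samples were CD11b and CD45 positive microglia, 7 of each genotype. The APP/PS1 and the WT astrocyte sample of the same number were hybridised to one dual-colour array, which gave 4 within-array differences. The APP/PS1 sample was in Cy3 on arrays 1 and 2 and in Cy5 on arrays 3 and 4. The labels call the samples biological replicates and do not say whether a sample was 1 animal or a pool.

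Astrocytes take up glutamate and potassium released by neurons, convert glutamate to glutamine, control water flow at endfeet on blood vessels, and supply neurons with lipids and lactate. Around amyloid plaques they become reactive: they enlarge and build up intermediate filaments such as GFAP. In a bulk sample, fewer cells of a type and less RNA per cell cannot be told apart.

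All values are on a log2 scale, so a difference of 1 is a 2-fold change. Of 22485 genes tested, 7516 differed between genotypes at a Benjamini-Hochberg adjusted p under 0.05 in limma (33.4%), 3465 higher (15.4%) and 4051 lower (18.0%) in APP/PS1 astrocytes. Without the array as a block the count was 2447, of which 1387 were higher. With the astrocyte samples fitted alone it was 2820.

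The samples differed in sex-linked genes and in markers of other cells. All 4 WT samples had high Xist, the RNA of the inactive X chromosome (11.77 to 12.82), and low Eif2s3y, a Y-linked gene (3.76 to 4.58). APP/PS1 samples 2 and 4 were like them, at 11.35 and 11.03 for Xist and 4.68 and 4.83 for Eif2s3y. APP/PS1 samples 1 and 3 had Xist at 6.17 and 8.11 and Eif2s3y at 9.64 and 9.63, so arrays 1 and 3 paired samples that differed in these genes. On arrays 2 and 4 alone, 2496 genes were higher and 2692 lower.

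The mean log2 level of 14 astrocyte markers was 14.74 to 15.00 in WT samples and 12.82, 13.60, 14.62 and 13.46 in APP/PS1 samples 1 to 4, so APP/PS1 sample 3 lay nearest to WT and sample 1 farthest. The mean of 15 microglial markers was 8.17, 7.22, 7.49 and 8.66 in WT samples 1 to 4 and 10.84, 8.77, 9.11 and 9.08 in the APP/PS1 samples, against 14.86 to 15.31 in WT microglia. The mean of 10 endothelial markers was 12.22 to 13.07 in WT and 13.07 to 14.03 in APP/PS1, and that of 8 mural markers (pericytes and vascular smooth muscle) was 9.79 to 11.95 and 11.44 to 13.37. In WT microglia the endothelial and mural means were at most 8.15 and 6.66, so the sorted astrocyte samples of both genotypes held vascular transcripts. These marker levels move with the results below, and their part in them was not tested.

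**Figure D1:**
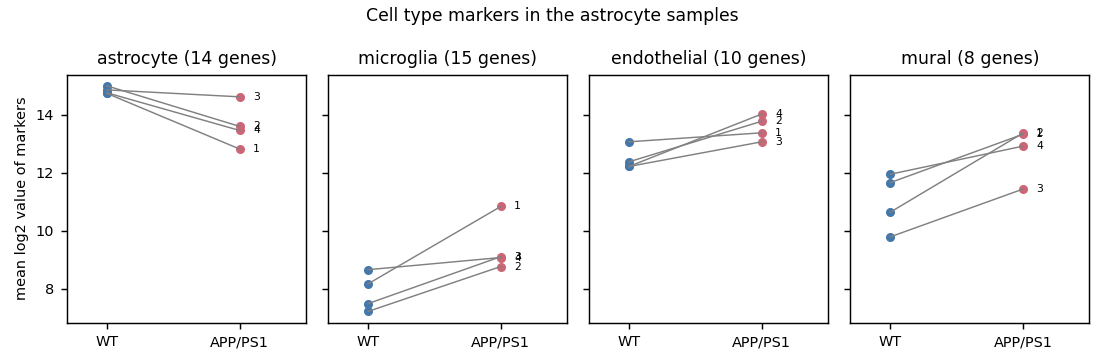
Mean log2 value of the cell type markers measured in all samples (y axis) in the 4 WT and 4 APP/PS1 astrocyte samples, with a line joining the samples of 1 array and the array number beside the APP/PS1 point. The astrocyte mean is lower, and the microglial, endothelial and mural means are higher, in the APP/PS1 sample of all 4 arrays.

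Over all genes 15.4% rose and 18.0% fell. By marker, 15 of 16 astrocyte markers fell and 1, Gfap, rose (median -1.37). The medians on arrays 1 to 4 were -2.15, -1.66, -0.35 and -1.64. Of 16 microglial markers 13 rose and 2 fell (median 1.68, by array 3.29, 1.75, 1.63 and 0.37). On arrays 2 and 4 alone 8 rose and 3 fell. Of 12 endothelial markers 11 rose (median 1.14, by array 0.26, 1.49, 1.04 and 1.99), but 5 without replicate 2 and 6 without replicate 4. Of 11 mural markers 8 rose (median 2.00, by array 1.67, 2.74, 2.06 and 1.21). Of 10 ependymal and choroid plexus markers 4 rose, but 2 without replicate 3 or 4. Of 16 neuronal markers 2 rose and 3 fell, and of 11 oligodendrocyte markers 2 rose and 2 fell. Of 9 oligodendrocyte precursor markers 1 rose and 2 fell, and of 8 fibroblast and meningeal markers 3 rose. Of 12 markers of perivascular macrophages and monocytes 2 rose, of 9 lymphocyte markers 1 rose and 1 fell, of 7 neural progenitor markers 1 rose, and none of 4 erythroid markers passed in limma at an adjusted p under 0.05.

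Genes were then divided by the difference between WT astrocytes and WT microglia (adjusted p under 0.05 and at least 1 log2). This class uses the WT astrocyte samples that also enter the genotype difference, so a WT sample that is high by chance raises the first and lowers the second. Of 5886 genes higher in astrocytes, 2141 fell (36.4%) and 934 rose (15.9%), 52.2% in all, with a median of -0.30. Of 2523 genes higher in microglia, 1080 rose (42.8%) and 192 fell (7.61%), 50.4% in all, with a median of 0.33. Of 14076 genes of neither class, 1451 rose (10.3%) and 1718 fell (12.2%), 22.5% in all, with a median of -0.05. The median of astrocyte-higher genes on arrays 1 to 4 was -0.31, -0.33, -0.18 and -0.31, and that of microglia-higher genes 0.40, 0.31, 0.23 and 0.33. With the class taken from both genotypes, 1876 astrocyte-higher genes fell and 1090 rose, and 872 microglia-higher genes rose and 267 fell. Because the cells were compared with microglia only, the astrocyte-higher class also holds 11 of the 12 endothelial and 9 of the 11 mural markers. The class shares above, and those over all genes (15.4% rose and 18.0% fell), are the background for each list count in astrocytes below.

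**Figure D2:**
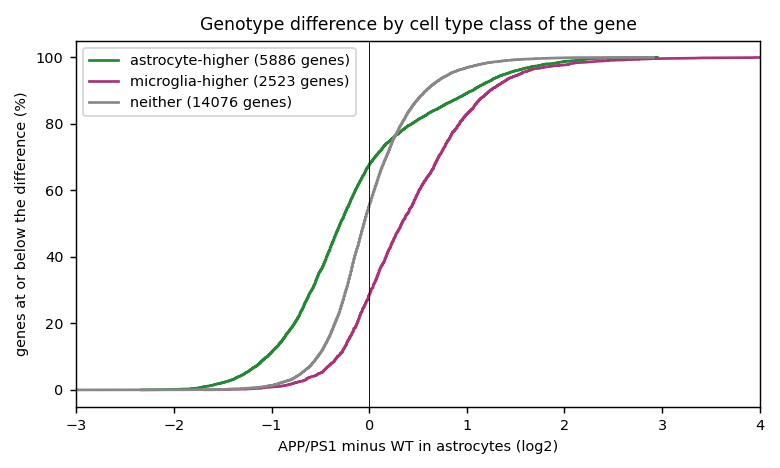
Share of genes (y axis, %) at or below a given APP/PS1 minus WT difference in astrocytes (x axis, log2), for the 3 classes of gene. The curve of the astrocyte-higher genes crosses the middle at -0.30 and that of the microglia-higher genes at 0.33, and the astrocyte-higher curve has a long upper tail.

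The intermediate filament genes rose together. All 6 measured genes, which are all in the astrocyte-higher class, rose, with a median of 1.79 (by array 1.58, 2.07, 1.97 and 1.25), and 5 rose on arrays 2 and 4 alone. Gfap, the filament protein that marks reactive astrocytes, was at 7.57, 7.89, 7.57 and 7.43 in WT and 9.02, 9.80, 10.18 and 9.05 in APP/PS1 samples 1 to 4. The groups did not overlap, and the difference over 4 arrays was 1.90 ± 0.18 (limma adjusted p = 1.45e-04), a 3.74-fold rise. Each ± value, here and below, is the SE of the fit of all 22 samples, so the microglia arrays share in its spread. It is not the spread of the 4 astrocyte differences alone, which can be wider. Those of Serping1, described below, were 2.24, 3.38, 2.31 and 0.57, with an SE of 0.30. Vim, which encodes vimentin, was at 13.94, 12.39, 12.31 and 14.18 in WT and 15.85, 15.70, 14.70 and 15.34 in APP/PS1. It rose by 2.19 ± 0.43 (limma adjusted p = 0.00330), and its WT samples fell into a low and a high pair, as did the mural markers. Nes (nestin) rose by 1.55 ± 0.17 and Synm (synemin), a partner of vimentin, by 1.67 ± 0.23. Both also had WT samples 1 and 4 (Nes 11.75 and 11.51, Synm 10.34 and 10.38) above samples 2 and 3 (10.94 and 10.91, 9.33 and 8.85). Des (desmin) had the largest rise of the list, 2.40. The astrocyte-higher class also holds 9 of the 11 mural markers, and the part of vascular cells in these rises was not tested. The level of Gfap was highest in APP/PS1 sample 3, the sample with the highest astrocyte marker mean of its group.

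Of 13 genes that rise in many kinds of reactive astrocyte, 9 rose and none fell (median 1.28), and 8 rose on arrays 2 and 4 alone. Osmr, a receptor subunit for oncostatin M, was at 10.49, 9.88, 9.94 and 10.38 in WT and at 11.47, 11.60, 11.47 and 11.63 in APP/PS1, without overlap, and rose by 1.37 ± 0.15. Serpina3n, a secreted serine protease inhibitor, rose by 1.28 ± 0.30 (limma adjusted p = 0.0129), with adjusted p = 0.0577 without replicate 2 and 0.121 on arrays 2 and 4 alone. S1pr3, a receptor for sphingosine 1-phosphate, rose by 2.10 ± 0.24, with WT samples 1 and 4 (10.43 and 11.13) above samples 2 and 3 (9.15 and 8.32). Lcn2, a secreted iron-binding protein, did not pass (0.40 ± 0.43, limma adjusted p = 0.533), nor did the hyaluronan receptor Cd44 (-0.15 ± 0.20, limma adjusted p = 0.615).

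Genes rose in both lists known as A1 and A2 reactive astrocyte genes. Of 10 A1 genes 8 rose (median 1.29) and of 12 A2 genes 5 rose (median 0.78), and none of either list fell. The difference between the lists was not tested. With the astrocyte samples alone 2 A1 genes rose. Serping1, the inhibitor of the complement protease C1, rose by 2.12 ± 0.30, and H2-T23, a non-classical MHC class I gene, by 1.54 ± 0.23. Serping1 was at 10.62, 9.06, 8.40 and 11.52 in WT and 12.85, 12.44, 10.71 and 12.09 in APP/PS1. Its groups overlapped, and WT samples 1 and 4 were above samples 2 and 3. Emp1, an A2 gene for an epithelial membrane protein, rose by 1.65 ± 0.16, with WT at 6.88 to 8.19 and APP/PS1 at 8.41 to 9.42. Several A1 and A2 genes are also expressed by vascular cells and microglia: 4 of the 10 A1 and 5 of the 12 A2 genes were microglia-higher.

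**Figure D3:**
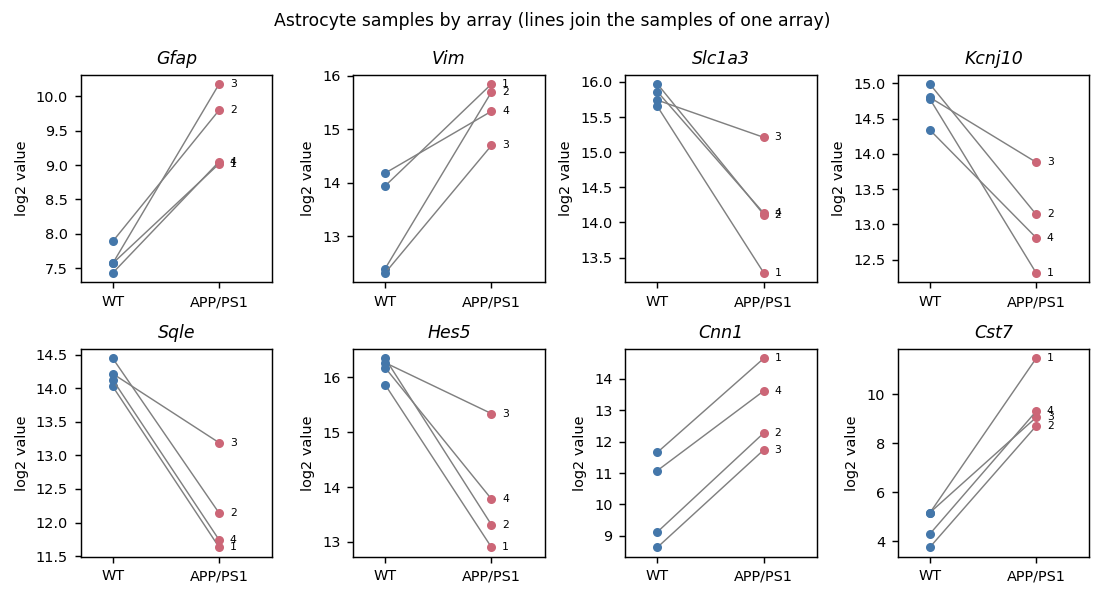
Log2 value (y axis) of 8 genes in the WT and APP/PS1 astrocyte samples, with a line joining the samples of 1 array. Gfap, Vim, Cnn1 and Cst7 are higher and Slc1a3, Kcnj10, Sqle and Hes5 are lower in the APP/PS1 sample of every array, and the fall is smallest on array 3.

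Genes of glutamate handling fell. Of 14 measured, 12 fell and 1 rose (median -1.18, by array -1.82, -1.31, -0.36 and -1.10). Slc1a3, the glutamate transporter GLAST, was at 15.65, 15.97, 15.74 and 15.86 in WT and 13.28, 14.11, 15.21 and 14.13 in APP/PS1, a fall of 3.08-fold (-1.62 ± 0.23, limma adjusted p = 6.01e-04). Slc1a2 encodes GLT1, the protein used for the sort, and fell by 1.23 ± 0.18, with APP/PS1 sample 3 (15.77) inside the WT range of 15.70 to 16.20. Glul (glutamine synthetase) fell by 1.21 ± 0.18, Abat (GABA transaminase) by 1.45 ± 0.12 and Glud1 (glutamate dehydrogenase) by 1.18 ± 0.13. The medians of the astrocyte markers on the same arrays were -2.15, -1.66, -0.35 and -1.64.

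Of 16 genes of endfeet and of water and ion transport, 13 fell and 1 rose (median -1.25, by array -1.73, -1.39, -0.37 and -1.14). Kcnj10, the potassium channel Kir4.1, was at 14.78, 14.99, 14.80 and 14.34 in WT and 12.31, 13.14, 13.88 and 12.81 in APP/PS1, without overlap, and fell by 1.69 ± 0.19 (limma adjusted p = 2.42e-04). Aqp4, the water channel of the endfoot, fell by 1.22 ± 0.25, but its values on array 3 were 14.41 in WT and 14.40 in APP/PS1. Of 5 connexins and pannexins 3 fell and 1 rose. Gjb6 (connexin 30) fell by 1.82 ± 0.31. Gja1 (connexin 43) fell by 1.38 ± 0.32 (limma adjusted p = 0.0209), was no lower on array 3, and had an adjusted p of 0.0887, 0.0719 and 0.0728 without replicates 1, 2 and 4. The marker S100b fell by 1.33 ± 0.25 and Aldoc, a glycolytic aldolase used as an astrocyte marker, by 1.36 ± 0.28.

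Sterol synthesis genes fell in astrocytes where most of them were higher in APP/PS1 microglia. Astrocytes are the main makers of cholesterol in the adult brain. Of 21 genes, 19 fell and none rose (median -1.19), 17 on arrays 2 and 4 alone, and 16 of the 21 had groups that did not overlap, as did 17.3% of all genes and 30.1% of astrocyte-higher genes. The medians by array were -1.36, -1.33, -0.69 and -1.23. On array 3 the sterol median was lower than that of the astrocyte markers (-0.35), and on array 1 it was higher (-2.15). Sqle (squalene epoxidase) was at 14.03, 14.45, 14.22 and 14.13 in WT and 11.63, 12.14, 13.19 and 11.74 in APP/PS1, a fall of 4.09-fold (-2.03 ± 0.27, limma adjusted p = 4.59e-04). Hmgcs1, the enzyme that makes HMG-CoA, was at 14.52 to 14.64 in all 4 WT samples and 12.40, 12.48, 13.24 and 12.37 in APP/PS1 (-1.94 ± 0.16). Cyp51, a sterol demethylase, fell by 1.15 ± 0.10, Fdps, which makes farnesyl diphosphate, by 1.19 ± 0.10, and Mvk (mevalonate kinase) by 0.94 ± 0.08.

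In microglia 12 of the 21 sterol genes rose and 2 fell (median 0.62). The share of all genes that rose or fell in microglia is not given here, so these counts have no background beside them. For 19 of the 21 the astrocyte effect was below the microglial effect (limma interaction, adjusted p under 0.05). Over all genes 5951 passed this interaction test (26.5%). Sqle was 1.90 higher in APP/PS1 microglia, and its effects differed by -3.94 ± 0.33 (limma adjusted p = 7.76e-05). Cyp51 was 1.32 higher in microglia, with a difference of effects of -2.47 ± 0.13.

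**Figure D4:**
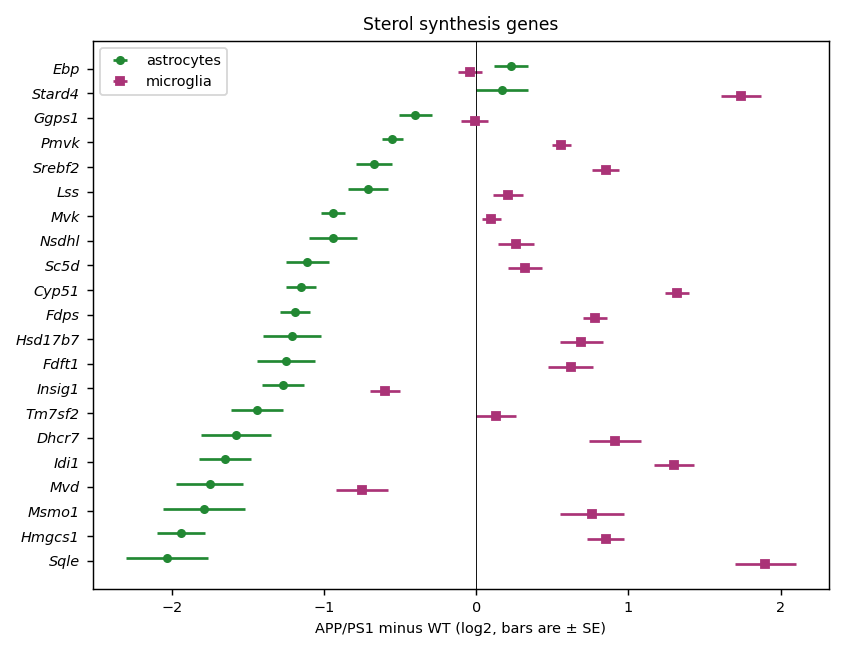
APP/PS1 minus WT difference (x axis, log2, bars are ± SE) of the 21 sterol synthesis genes in astrocytes (circles) and microglia (squares). Of the 21 genes, 19 lie below 0 in astrocytes, and Sqle is at -2.03 in astrocytes and 1.90 in microglia.

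Fatty acid synthesis genes fell with them: 17 of 18, and none rose (median -1.13, by array -1.60, -1.39, -0.43 and -1.21). Acss2, which makes acetyl-CoA from acetate, was at 11.67 to 12.14 in WT and 9.81 to 10.81 in APP/PS1 (-1.57 ± 0.14). Thrsp, a regulator of lipid synthesis, fell by 1.64 ± 0.16. Acly, the citrate lyase that feeds both pathways, is of neither cell type class and fell by 0.80 ± 0.08, from 13.29 to 13.68 in WT to 12.48 to 13.10 in APP/PS1.

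Genes of lipid transport were mixed, with 4 of 16 higher and 7 lower. Of the 16, 8 are astrocyte-higher, a class of which 15.9% rose and 36.4% fell, where 15.4% of all genes rose and 18.0% fell. Fabp5, a fatty acid binding protein, was at 15.28 to 15.50 in WT and 13.03, 13.55, 14.71 and 13.48 in APP/PS1 (-1.71 ± 0.23), but 3.74 higher in APP/PS1 microglia, a difference of effects of -5.45 ± 0.30. Clu (clusterin) fell by 0.93 ± 0.22. Apoe was measured on 3 astrocyte arrays and did not pass by its brightest probe (-0.71 ± 0.28, limma adjusted p = 0.0944), 2 of whose astrocyte values were within 0.5 of the highest value of the table, 17.89. All 10 Apoe probes were lower in APP/PS1, and 6 of them passed when all probes were tested, at -0.81 to -0.97 (limma adjusted p = 0.0180 to 0.0342). Abcg1, a sterol exporter, rose by 1.45 ± 0.15, and Lpl (lipoprotein lipase) by 2.30 ± 0.40. Both had WT samples 1 and 4 above samples 2 and 3.

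The promoter stretches of Isg15 and Bst2 are shown because all measured interferon genes rose. That of Hmgcs1 is shown because, of 17 sterol genes with a promoter sequence, it alone held the element described below. Cyp51 and Mvk held none, and Sqle and Fdps had no promoter sequence. The sequences are from RefSeq, build GRCm38.p6, 5′ to 3′ on the gene's strand, with the matched letters in capitals. The Isg15 stretch is chr4:156200850-156200921 and the Bst2 stretch is chr8:71537562-71537627, both on the minus strand, and the Hmgcs1 stretch is chr13:119690189-119690247 on the plus strand.
Isg15: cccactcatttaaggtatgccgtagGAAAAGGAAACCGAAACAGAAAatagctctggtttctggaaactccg
Bst2: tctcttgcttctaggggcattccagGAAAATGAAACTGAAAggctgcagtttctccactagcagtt
Hmgcs1: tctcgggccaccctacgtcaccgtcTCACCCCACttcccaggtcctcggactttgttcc
The capitals in Isg15 and Bst2 are overlapping matches to GAAANNGAAA, the core of the interferon-stimulated response element. On either strand of the 250 bases before the start, 10 of 18 interferon genes with a promoter in the table held it (55.6%), against 588 of 17162 genes (3.43%). The capitals in Hmgcs1 match TCACNCCAC, a sterol regulatory element. It was found in 1 of 17 sterol genes (5.88%) and in 208 of 17162 genes (1.21%). The letters TGGGAA, bound by the Notch effector RBPJ, were in 5 of 19 Notch pathway genes (26.3%) and 4041 of 17162 genes (23.5%). The CArG box, bound by serum response factor, was in 0 of 8 mural genes and 260 of 17162 genes (1.51%). A match describes letters and not a used site.

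All 24 interferon response genes measured rose (median 1.36, lowest 0.46, highest 2.33), and 24 did so on arrays 2 and 4 alone. With the astrocyte samples alone 8 rose. The median was 0.34 on array 1 and 1.40, 1.28 and 1.95 on arrays 2 to 4. The microglial markers differed most on array 1 (3.29) and least on array 4 (0.37), and the endothelial markers least on array 1 (0.26) and most on array 4 (1.99). Isg15, a ubiquitin-like modifier, is of neither class and was at 11.64, 10.59, 11.07 and 10.75 in WT and 12.57, 12.00, 12.40 and 13.05 in APP/PS1, a rise of 2.81-fold (1.49 ± 0.20, limma adjusted p = 4.75e-04). Bst2 (tetherin), which holds virus particles at the membrane, rose by 1.62 ± 0.15 and Ifi27l2a, a mitochondrial interferon-induced gene, by 2.33 ± 0.25. Of 13 MHC class I and immunoproteasome genes 12 rose (median 1.04, by array -0.03, 1.38, 1.15 and 1.84), and none did so with the astrocyte samples alone.

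Genes of disease-associated microglia were higher in the sorted astrocyte samples of APP/PS1 mice. Of 29 such genes 18 rose and 3 fell (median 1.35), and 19 of the 29 are microglia-higher. Cst7, a cystatin, was at 5.16, 3.76, 5.17 and 4.30 in WT and 11.47, 8.71, 9.06 and 9.31 in APP/PS1, the largest rise of a microglia-higher gene (5.04 ± 0.35, limma adjusted p = 7.91e-05), and its rise in microglia was 4.99. Clec7a, a receptor for fungal glucans, rose by 3.94 ± 0.33, the cytokine Il1b by 3.93 ± 0.38, and the microglial signalling adaptor Tyrobp by 3.41 ± 0.25. Trem2, the receptor that signals through it, was at 6.36 to 8.14 in WT and at 12.68 in APP/PS1 sample 1 and 9.55 to 10.17 in the other three.

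Microglial genes that did not rise in APP/PS1 microglia also rose here. C1qa, a chain of complement C1q, rose by 2.32 ± 0.31 in astrocyte samples and differed by -0.19 in microglia (limma adjusted p = 0.645 there). Cx3cr1, the fractalkine receptor, rose by 2.04 ± 0.43 in astrocyte samples and fell by 1.25 in microglia, but had an adjusted p of 0.143 on arrays 2 and 4 alone. Ccl3, a chemokine, rose by 2.51 ± 0.27. P2ry12, a receptor of homeostatic microglia, did not pass (0.04 ± 0.25, limma adjusted p = 0.926). It was at 8.36 in APP/PS1 sample 1 and 6.89 to 7.43 in the other three, and on arrays 2 and 4 alone it was lower (-0.64, limma adjusted p = 0.0288). The brightest probes of Itgam, which encodes CD11b, and Siglech fell by 0.59 ± 0.09 and 0.77 ± 0.10. In WT samples these probes differed by only -0.44 and -0.68 between astrocytes and microglia. The second probe of Siglech rose by 1.67 ± 0.40. The other two probes of Itgam were at 0.37 ± 0.18 and 0.87 ± 0.32 and did not pass (limma adjusted p = 0.150 and 0.0658), so the direction of both genes depended on the probe. The cytokine Il18 is astrocyte-higher in these data and fell by 1.83 ± 0.18. Of 24 cytokines and chemokines 16 rose and 2 fell, and of 17 complement genes 11 rose and 1 fell. Of these lists 20 of the 24 and 6 of the 17 genes are microglia-higher, a class of which 42.8% rose and 7.61% fell. Over all genes 15.4% rose and 18.0% fell. C4b, the classical-pathway component that astrocytes also make, rose by 1.31 ± 0.32 (limma adjusted p = 0.0106) on 3 of 4 arrays, with an adjusted p of 0.0639 and 0.0567 without replicates 2 and 3.

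Among astrocyte-higher genes with 1 sign on all arrays, the 12 largest rises ran from 2.48 to 2.95. The first was that of Cnn1, a smooth muscle gene. Cnn1 (calponin 1) was at 11.66, 9.12, 8.63 and 11.08 in WT and 14.66, 12.28, 11.74 and 13.62 in APP/PS1, a rise of 7.72-fold with a small error within arrays (2.95 ± 0.13, limma adjusted p = 7.01e-05). The groups did not overlap, while the range within each genotype was close to the difference. In order of size, Pln (phospholamban) followed with 2.87 ± 0.44, Cald1 (caldesmon) with 2.72 ± 0.42, Pdlim3, an actin-associated protein, with 2.62 ± 0.39, and Perp, a membrane protein of desmosomes, with 2.61 ± 0.45. Rgs5, a pericyte regulator of G-protein signalling, rose by 2.58 ± 0.43, Myl9, a myosin light chain measured on 3 arrays, by 2.57 ± 0.35, and Pde1a, a phosphodiesterase, by 2.56 ± 0.36. Mrvi1, a regulator of calcium release in smooth muscle, rose by 2.55 ± 0.42, C1s1, a complement protease, by 2.52 ± 0.42, Myocd (myocardin), the coactivator of smooth muscle genes, by 2.51 ± 0.41, and Gja4 (connexin 37) by 2.48 ± 0.31. Acta2 (smooth muscle actin) rose by 1.83 ± 0.28, with 3 astrocyte values near the highest value of the table. Col4a1, a basement membrane collagen, rose by 1.78 ± 0.20 and the endothelial junction gene Cldn5 by 1.02 ± 0.31 (limma adjusted p = 0.0277), with adjusted p = 0.139 and 0.133 without replicates 2 and 4. Of 23 extracellular matrix genes 7 rose and 8 fell (median -0.03). Of the 23, 17 are astrocyte-higher, a class of which 15.9% rose and 36.4% fell. Over all genes 15.4% rose and 18.0% fell.

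Glycolysis, glycogen and one-carbon genes fell more often than they rose, as did astrocyte-higher genes as a class (36.4% fell and 15.9% rose). Of that class are 17 of the 22 glycolysis, 12 of the 15 glycogen and 11 of the 16 one-carbon genes. Of 22 glycolysis and lactate genes 14 fell and 1 rose (median -0.61), of 15 glycogen genes 9 fell and 2 rose (median -0.65), and of 16 serine, glycine and folate genes 10 fell and 3 rose (median -0.76). Gpd1, which turns a glycolytic intermediate into glycerol phosphate, was at 11.99, 12.57, 12.68 and 12.01 in WT and 9.14, 10.33, 11.32 and 10.01 in APP/PS1 (-2.11 ± 0.19, limma adjusted p = 1.25e-04). Pfkm (phosphofructokinase) fell by 1.36 ± 0.17. Tpi1 (triose phosphate isomerase) fell by 0.75 ± 0.09 in astrocytes and was 1.37 higher in APP/PS1 microglia. Ppp1r3g, a glycogen-targeting subunit of protein phosphatase 1, fell by 2.23 ± 0.21 and Gys1 (glycogen synthase) by 1.03 ± 0.12. Aldh1l1, the folate enzyme used to mark astrocytes, fell by 1.84 ± 0.21 and Gcat, which breaks down threonine, by 1.06 ± 0.09. Of 27 oxidative phosphorylation genes 12 fell (7 without replicate 2) and 1 rose (median -0.19), and of 21 metallothionein and antioxidant genes 13 fell and 2 rose (median -0.52).

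Most astrocyte transcription factors fell. Of 19 astrocyte transcription factors 14 fell and 1 rose (median -1.02). Hes5, a repressor that Notch signalling induces, had the largest fall of the astrocyte-higher genes that moved the same way on all arrays. It was at 15.87, 16.35, 16.27 and 16.18 in WT and 12.90, 13.31, 15.34 and 13.78 in APP/PS1 (-2.33 ± 0.30, limma adjusted p = 4.47e-04). The Notch list as a whole was split, with 8 of 24 higher and 7 lower (median -0.02), with 5 higher and 4 lower without replicate 2 and 4 lower without replicate 4. Among its ligands, Jag2 rose by 1.35 ± 0.17 and Dll1 by 1.25 ± 0.18. The homeodomain factors Lhx2 and Dbx2 fell by 1.93 ± 0.30 and 2.01 ± 0.28.

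Of 19 genes of FGF and EGF signalling 12 fell and 1 rose (median -0.58). Etv5, a factor induced by FGF signalling, was at 13.84 to 14.35 in WT and 11.42, 11.69, 13.52 and 11.74 in APP/PS1 (-1.96 ± 0.24), and the related Etv4 fell by 1.71 ± 0.15. Of 11 hedgehog genes 5 fell and none rose, but 2 fell without replicate 1, 3 without replicate 2, 3 without replicate 4 and 2 on arrays 2 and 4 alone. Gli1, a target and effector of the pathway, fell by 1.15 ± 0.28 (limma adjusted p = 0.0165), with adjusted p = 0.0720 and 0.0828 without replicates 1 and 2. Its receptor Ptch1 fell by 0.81 ± 0.13. Of 19 BMP and Id genes 6 rose and 5 fell (3 fell without replicate 2 or 4), Bmp2 rising by 1.90 ± 0.35 (adjusted p = 0.0517 in limma on arrays 2 and 4 alone) and Id4 falling by 1.65 ± 0.29. Of 20 synaptogenic and synapse-pruning factors 5 rose and 9 fell, with 3 higher without replicate 1, 2 or 4 and 5 lower without replicate 4. For comparison, 15.4% of all genes rose and 18.0% fell, and 15.9% of astrocyte-higher genes rose and 36.4% fell.

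Immediate early and dissociation stress genes rose. Of 24 measured, 19 rose and none fell (median 1.11, by array 1.16, 1.37, 0.95 and 0.73), and 18 rose on arrays 2 and 4 alone. The list holds 19 microglia-higher genes. Fos was at 12.35, 10.80, 10.68 and 12.18 in WT and 14.78, 13.70, 12.98 and 13.37 in APP/PS1 (2.21 ± 0.23, limma adjusted p = 1.86e-04), and differed by -0.20 in microglia. Egr1 rose by 2.37 ± 0.25. Ptgs2 (cyclooxygenase 2) rose by 1.99 ± 0.33 here and by 3.27 in microglia. Of 20 unfolded protein and integrated stress response genes 5 rose and 4 fell (median -0.14), where 15.4% of all genes rose and 18.0% fell. Without replicate 2 these counts were 3 and 2. The 4 that fell were 2 without replicate 1 or 4.

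The transgene check was App. Its probe was at 13.82, 12.60, 12.92 and 13.25 in WT and 14.33, 14.67, 13.78 and 14.69 in APP/PS1, a rise of 2.33-fold (1.22 ± 0.20, limma adjusted p = 0.00140) with sample 3 inside the WT range. Whether the probe also reads the transgene was not tested. Prnp fell by 0.67 ± 0.19 in astrocytes (limma adjusted p = 0.0224; 0.103 and 0.0993 without replicates 1 and 4) and was 2.30 higher in APP/PS1 microglia. Of 16 genes of amyloid precursor processing 3 rose and 3 fell, and 1 rose without replicate 3. The counts of 3 are near the shares over all genes, of which 15.4% rose and 18.0% fell. Aplp1, an App paralogue, fell by 1.47 ± 0.25.

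**Figure D5:**
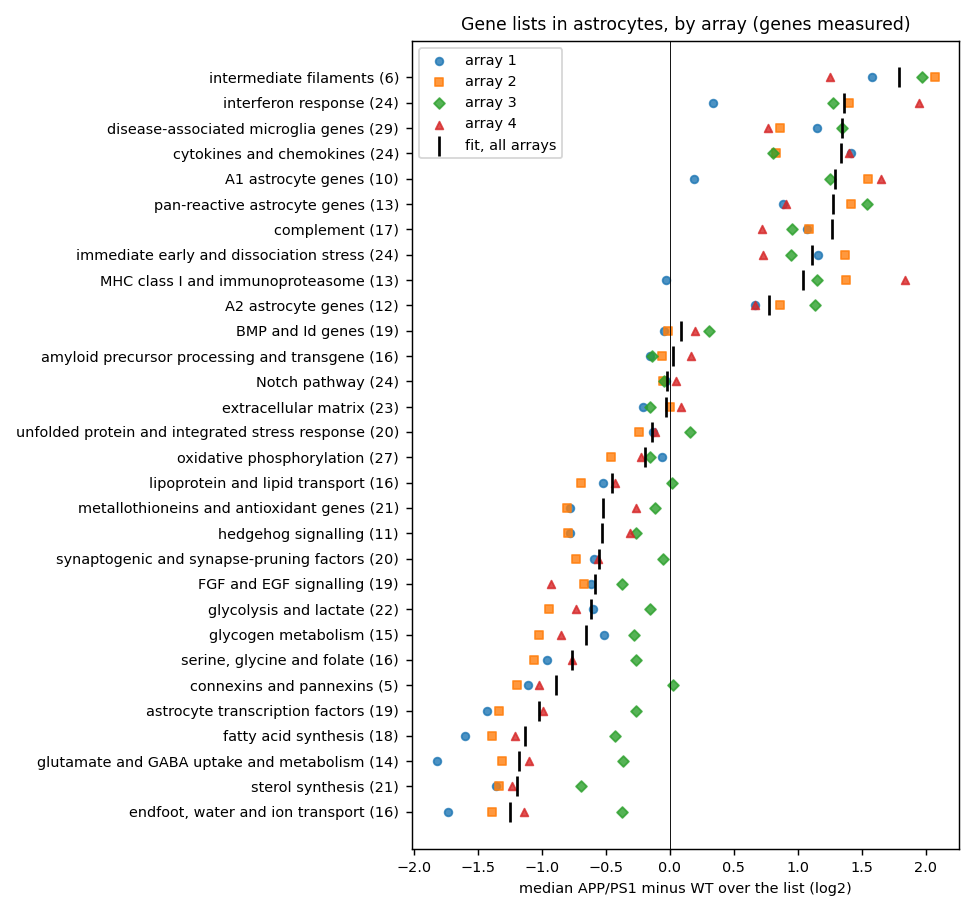
Median APP/PS1 minus WT difference over each of 30 gene lists (x axis, log2), on each astrocyte array and in the fit of all arrays (bar), with the number of genes measured in brackets. The highest median is that of the intermediate filaments (1.79) and the lowest that of the endfoot, water and ion transport genes (-1.25), and array 3 is nearest to 0 in most of the lists that are lower.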

How the data were processed

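Sorted astrocytes and microglia were measured on 11 dual-colour Agilent arrays. The deposited table gives 1 log2 value per channel and probe; the submitters' processing notes name limma, while how background was corrected and arrays were normalized is not given in the sources used here. Column medians were 6.24 to 6.26, so a shift of all genes could not be seen. Of 43020 probes 33026 named 1 gene, and each of 22485 genes was read from its brightest probe. Some listed genes are not reported here.

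One limma 3.58.1 model (R 4.3.3) of all 22 samples had array as a fixed block, dye, and genotype within cell type, with Benjamini-Hochberg adjustment and a threshold of 0.05; the script was tested on simulated data. The array pairing came from the labels. Same-array samples, centred within groups, correlated at a median of 0.08 across genes (-0.00 to 0.33). Samples of different arrays were at a median of -0.06 (-0.36 to 0.31), so the ranges overlapped and do not show the pairing by themselves. Slide 3 held every astrocyte array and no other, so cell type and slide cannot be told apart. The cell type class used array as a random block.

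Members and lists were chosen with earlier results of these data known. The naming rule took, among genes past the threshold with 1 sign on all arrays, the 12 largest rises and falls (astrocyte-higher) or 6 (other classes), 4 per list by adjusted p, 2 markers per type, and fixed genes: 195 in all, of which 93 are printed. Alternatives were another block, no dye term, quantile normalization, mean of probes, filters, each replicate left out, and other class definitions. Arrays 2 and 4 alone, and 1 and 3 alone, were added after seeing the data.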

Additional observations from a re-analysis of the deposited data

Results flagged for a closer look

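In 182 groups of 4 samples, 7 samples stood apart by the ratio of their gap to the range of the group (above Dixon's 95% critical value); about 1 in 20 groups does so by chance. In APP/PS1 sample 3, Col4a1 (11.24) lay below the others of its group and Hmgcs1 (13.24), Gys1 (10.84) and Etv5 (13.52) above them. In APP/PS1 sample 1, Clec7a (9.83) lay above. In WT sample 1, Ppp1r3g (13.10) lay below, and in WT sample 2, Eif2s3y (3.76).

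For 67 of the 93 genes printed, the genotype effect in astrocytes differed from that in microglia (limma interaction, adjusted p under 0.05). Over all genes 26.5% passed this test. Many printed genes were named for large or clear astrocyte differences in these same data, which favours a pass. The 67 are therefore not a fair sample of all genes. The values that follow are the astrocyte effect minus the microglial effect in log2. The difference was positive for Cx3cr1 3.30, Pde1a 3.21, Cald1 3.14, Cnn1 3.09, Mrvi1 2.94, Pln 2.84, Bmp2 2.78, Rgs5 2.76, Pdlim3 2.65, Myocd 2.58, Tyrobp 2.57 and C1qa 2.51. Smaller positive values were those of Gja4 2.50, Ccl3 2.49, C1s1 2.48, Fos 2.41, Myl9 2.37, Synm 2.20, Trem2 2.20, S1pr3 2.17, Serping1 2.14, Egr1 2.00, Col4a1 1.85 and Acta2 1.70. The remaining positive values were C4b 1.62, Abcg1 1.58, Clec7a 1.34, Emp1 1.14, App 1.08, H2-T23 1.07, Bst2 1.06, Osmr 1.02 and Nes 0.94. Jag2 was at 0.89. The difference was negative for Fabp5 -5.45, Sqle -3.94, Apoe -3.46, Prnp -2.97, Hmgcs1 -2.79, Etv4 -2.57, Cyp51 -2.47, Tpi1 -2.12 and Aldh1l1 -2.00. Next came Fdps -1.97, Acss2 -1.97, Gcat -1.71, Lpl -1.65, Aplp1 -1.60, Il18 -1.56, Kcnj10 -1.51, Hes5 -1.44 and Gys1 -1.44. Between these and 0 lay Ppp1r3g -1.42, Thrsp -1.32, Etv5 -1.30, Ptgs2 -1.28, S100b -1.17, Abat -1.09, Dbx2 -1.08, Aqp4 -1.07 and Gpd1 -1.07. The remaining negative values were Pfkm -1.05, Mvk -1.04, Slc1a3 -0.92, Glud1 -0.89, Ptch1 -0.78 and Acly -0.65.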

How the results depend on the processing

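Under each alternative, calls shared with the reported fit kept their direction, except 3 genes when all probes were averaged. Without the array as a replicate block the calls were 2447 (1387 higher, 1060 lower) over all genes, 1103 (364 higher, 739 lower) among astrocyte-higher, 657 (605 higher, 52 lower) among microglia-higher and 687 (418 higher, 269 lower) among other genes, and 1490 for the interaction. With astrocyte samples alone the calls were 2820 (1476 higher, 1344 lower) over all genes, 1554 (518 higher, 1036 lower) among astrocyte-higher, 536 (492 higher, 44 lower) among microglia-higher and 730 (466 higher, 264 lower) among other genes. On arrays 1 and 3 alone the calls were 3537 (1917 higher, 1620 lower) over all genes, 1319 (455 higher, 864 lower) among astrocyte-higher, 842 (762 higher, 80 lower) among microglia-higher and 1376 (700 higher, 676 lower) among other genes, and 3215 for the interaction. On arrays 2 and 4 alone the calls were 5188 (2496 higher, 2692 lower) over all genes, 2173 (628 higher, 1545 lower) among astrocyte-higher, 994 (845 higher, 149 lower) among microglia-higher and 2021 (1023 higher, 998 lower) among other genes, and 4591 for the interaction. With the class set at 2 log2 they were 1897 (629 higher, 1268 lower), 685 (628 higher, 57 lower) and 4934 (2208 higher, 2726 lower). Leaving out 1 replicate gave 5513 to 6847 calls, 2669 to 3179 higher, 2844 to 3668 lower, 2230 to 2846 astrocyte-higher calls, 627 to 829 of them higher, 1603 to 2017 lower, 1073 to 1197 microglia-higher calls, 913 to 1021 of them higher, 140 to 179 lower, 2168 to 2804 calls of neither class, 1067 to 1329 of them higher and 1101 to 1512 lower, the lowest without replicate 2, and 4388 to 5944 for the interaction. The effect of the array block was the largest on the count of calls among the settings changed for all 22 samples. The cause was not tested.

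The sign of these values turned. Notch pathway had a median of -0.02 and 0.06 (mean of all probes), 0.04 (genes above the median gene), 0.04 (genes with values on every array), 0.04 (replicates 2 and 4 only) and -0.05 to 0.08 (without 1 replicate). Extracellular matrix had a median of -0.03 and 0.04 (genes above the median gene), 0.05 (replicates 2 and 4 only) and -0.12 to 0.04 (without 1 replicate). Amyloid precursor processing and transgene had a median of 0.03 and -0.01 (quantile normalization), -0.11 (genes above the median gene), -0.08 (genes with values on every array), -0.16 (replicates 1 and 3 only) and -0.17 to 0.07 (without 1 replicate). Neuron had a median of 0.27 and -0.29 (genes above the median gene). Oligodendrocyte had a median of -0.09 and 0.09 (mean of all probes), 0.03 (genes with values on every array), 0.05 (replicates 1 and 3 only) and -0.15 to 0.09 (without 1 replicate). Fibroblast and meningeal had a median of 0.30 and -0.13 (replicates 1 and 3 only). Lymphocyte had a median of 0.16 and -0.01 (replicates 2 and 4 only) and -0.18 to 0.27 (without 1 replicate). Neural progenitor had a median of 0.24 and -0.10 (mean of all probes), -0.29 (replicates 1 and 3 only) and -0.30 to 0.44 (without 1 replicate). Erythroid had a median of 0.40 and -0.11 to 0.76 (without 1 replicate). P2ry12 had an effect of 0.04 and -0.64 (replicates 2 and 4 only). Itgam had an effect of -0.59 and 0.22 (mean of all probes). Siglech had an effect of -0.77 and 0.45 (mean of all probes). The 93 printed genes kept direction and side of the threshold in 93 cases without the dye term and 93 with quantile normalization, and 83 without the replicate block, where 10 no longer passed. With astrocyte samples alone 75 did so and 18 no longer passed. On arrays 1 and 3 alone 79 did so, 12 no longer passed and 2 newly passed. On arrays 2 and 4 alone 86 did so, 6 no longer passed and 1 turned its sign. The number of arrays limits precision, and the table holds no background signal.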

Other observations

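Within-array differences of the 4 astrocyte arrays, taken across the 21931 genes measured in all 8 astrocyte samples, correlated at 0.23 to 0.62, and the genes are not independent replicates. The highest value was that of arrays 1 and 2 (0.62), which had APP/PS1 in Cy3. Next came arrays 3 and 4 (0.42), which had it in Cy5. Pairs of arrays with opposite dyes were at 0.23 to 0.35, and the part of dye was not tested. The WT samples themselves fell into pairs in several groups of genes: the mean of the mural markers was 11.66 and 11.95 in WT samples 1 and 4 and 10.64 and 9.79 in samples 2 and 3, and the mean of the microglial markers was 8.17 and 8.66 against 7.22 and 7.49.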
